A study of Mus musculus with 4 samples.

Results

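The genes described here are 34 transcripts known as targets or partners of the tumour suppressor p53, taken from the 46603 gene IDs of the deposited table by their gene symbol, 1 row each. All 34 had counts in every library and an average of 100 normalized counts or more, the highest minimum used below. They were grouped by role: 8 genes for p53 itself and its feedback, 10 for cell cycle arrest, 11 for apoptosis and 5 for DNA repair and metabolism. p53 is a transcription factor that is held at low protein level by the ubiquitin ligase Mdm2. DNA damage and other stresses stabilise the protein, which then switches on genes that stop the cell cycle, repair DNA or trigger cell death, and also Mdm2 itself. Mouse embryonic stem cells are known for abundant p53 and for a short first gap phase of their cycle.

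The study compared mouse embryonic stem cells of 2 genotypes, wild-type and Gsk3a-/-;Gsk3b-/-, which lacks both genes of glycogen synthase kinase 3, with 2 samples of each. The sample labels give embryonic day 16, while the design text writes E15, and nothing says whether a genotype rests on 1 clone. The cells of all 4 samples grew in medium with serum and LIF over fibroblasts that had been irradiated, and polyadenylated RNA was sequenced. The table names its groups only A and B, so every change below is that of group B relative to group A, with neither tied to a genotype. Values of single libraries were recovered as whole reads from the group means, and they are named A1 and A2, B1 and B2, with numbers that are not those of the labels. A normalized count is a read count divided by the size factor of its library.

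Libraries held 112655210 to 146326307 reads in genes. Of the targeted genes, Gsk3a had 6353 and 7104 normalized counts in A1 and A2 against 1697 and 1347 in B1 and B2, and Gsk3b had 5438 and 6285 against 5051 and 5002. The authors' deposited table gave Gsk3a an adjusted p of 4.90e-24 and Gsk3b one of 0.984 (DESeq). All 12 stem cell markers were present in every library, with sums of 933261 and 996662 in group A and 843272 and 828681 in group B. In 8 of the 12 both B libraries lay below both A libraries and in 0 above, and 2 were called lower, Utf1 (adjusted p 0.000237, DESeq) and Lin28a (adjusted p 0.0340, DESeq). Of 25 fibroblast markers 24 had counts in every library. Bgn was at 0 in all libraries, and whether that reflects the cells or the processing was not tested. Their sums were 285635 and 197348 in group A and 141238 and 428463 in group B, so B1 and B2 were the lowest and the highest of the 4 libraries. Of 20 endoderm markers 19 had counts in every library, Afp being at 0 in at least 1. In 12 of the 20 both B libraries lay above both A libraries and in 1 below. In the authors' table only 1 was called, Foxa1, which was higher (adjusted p 0.0192, DESeq). At an unadjusted p under 0.05 (DESeq) there were 12, beside 3141 of the 20465 genes averaging 10 or more. limma called 5 of the 20, beside 2.01% of all genes, and 1, 1 and 2 of the stem cell, fibroblast and macrophage markers. The median log2 fold change of the 19 endoderm markers averaging 10 or more was 1.62, with 15 above 0 and 4 below. The endoderm sums were 204527 and 170702 in group A against 537947 and 293808 in group B. All 18 macrophage markers had counts in every library, and 1 of them, Laptm5, with means of 24895 and 20943 in groups A and B, made up most of their sums of 28377 and 29902 in group A and 22332 and 29841 in group B. The median macrophage marker was at 41.9 and 29.7 in group A against 77.5 and 131 in group B. In 14 of the 18 both B libraries lay above both A libraries and in 3 below, and 4 were called higher and 1 lower. The higher ones were Lyz2, Spi1, Fcgr1 and Ptprc, and the lower one was Mrc1 (authors' deposited table, DESeq). Of all genes averaging 100 or more, 28.3% lay above in this way and 26.2% below, and 3.46% of all genes tested were called.

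The sequence that p53 binds is built from a half-site of 10 bases, and exact matches to its consensus were more common in these promoters than in promoters at large. RefSeq promoter windows (GRCm38.p6, 250 bases before to 50 after each start) were at hand for 26 of the 34 genes. In 21 of the 26 the window ran along the strand of the transcript. For the others it may not hold the bases before the gene's own start. Of the 26 genes 12 (46.2%) held a half-site in at least 1 window. Over all 27025 genes with a window the share was 9.55%. The consensus is its own reverse complement, so 1 search covers both strands. The genes were listed as p53 targets, which gives this share no independent weight, and a match describes letters and not binding. The half-sites that were found are shown with 10 bases on each side, and the other 14 of the 26 genes held none in this window. Capitals mark the match.
Trp53, chr11:69580274-69580303, plus strand: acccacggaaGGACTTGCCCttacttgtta
Mdm2, chr10:117710925-117710954, minus strand: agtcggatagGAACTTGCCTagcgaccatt
Ppm1d, chr11:85311112-85311141, plus strand: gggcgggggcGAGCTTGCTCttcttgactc
Ccng1, chr11:40755452-40755481, minus strand: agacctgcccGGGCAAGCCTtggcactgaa
Gadd45a, chr6:67037428-67037457, minus strand: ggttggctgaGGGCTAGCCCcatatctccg
Gtse1, chr15:85859945-85859974, plus strand: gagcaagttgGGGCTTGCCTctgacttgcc
Sesn1, chr10:41887256-41887285, plus strand: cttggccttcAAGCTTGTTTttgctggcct
Bax, chr7:45467080-45467109, minus strand: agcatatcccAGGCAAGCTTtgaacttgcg
Aen, chr7:78895927-78895956, plus strand: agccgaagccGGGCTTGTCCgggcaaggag
Ei24, chr9:36797325-36797354, minus strand: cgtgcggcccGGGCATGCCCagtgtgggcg
Polk, chr13:96519399-96519428, minus strand: catgtagcttGAACTAGCCTcaaacttatt

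Cdkn1a was the 12th of these genes and the one with 2 exact half-sites in a window, 12 bases apart. A pair at most 13 bases apart was found in 20 of the 27025 genes (0.0740%). The 10 bases directly after the second half-site matched the consensus at 9 of 10 positions. The window lies before the first of 2 RefSeq starts of Cdkn1a, and the second start is 2790 bases downstream, so the second half-site begins 2841 bases before it. The stretch up to the first annotated exon base is printed because Cdkn1a is the member with the clearest increase.
Cdkn1a, chr17:29090729-29090975, plus strand: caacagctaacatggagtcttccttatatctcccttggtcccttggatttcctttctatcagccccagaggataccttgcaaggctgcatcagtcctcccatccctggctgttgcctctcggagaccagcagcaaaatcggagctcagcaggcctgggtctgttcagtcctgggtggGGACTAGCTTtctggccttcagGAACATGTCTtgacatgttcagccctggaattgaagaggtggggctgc
Genes with and without a half-site had medians near 0. By the authors' deposited table the median log2 fold change was 0.0019 for the 12 with one, of which 2 passed the threshold, and 0.022 for the 14 without, of which 1 passed, beside 6.23% of all genes averaging 100 or more. This window holds only a small part of the sequence around each gene.

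Between the groups, the arrest gene Cdkn1a was higher in group B, and the arrest gene Gadd45a and the apoptosis gene Bbc3 were lower. The ratio of group means, B over A, was 1.98 for Cdkn1a, 0.462 for Gadd45a and 0.529 for Bbc3. These 3 of 34 genes (8.82%) passed an adjusted p of 0.05 in the authors' deposited table (DESeq, adjusted over all 30237 genes tested), 1 higher and 2 lower. Of all genes tested 3.46% passed, 1.54% higher and 1.92% lower. Among genes averaging 100 or more, as all members did, 6.23% passed (2.78% higher, 3.44% lower), so the members' share was close to the background. The other 31 did not pass, and 27 of the 34 had a log2 fold change smaller than 0.5 in size. The median log2 fold change of the 34 was 0.058, with 18 above 0 and 16 below. Over all genes averaging 100 or more it was 0.013. In 21 of the 34 genes the 2 libraries of B lay on one side of both libraries of A, 11 above and 10 below. Of all genes averaging 100 or more 54.4% were so placed, 28.3% above and 26.2% below. With 2 libraries a group, and nothing that says they came from separate cultures, p-values measure only the spread between these libraries, which may be technical. The authors' adjustment includes genes of few reads. Adjusted over the 20465 genes averaging 10 or more, of which 5.81% then passed, the authors' p-values called 5 members, the other two being Plk2 (adjusted p 0.0384, DESeq) and Trp73 (adjusted p 0.0438, DESeq).

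**Figure D1:**
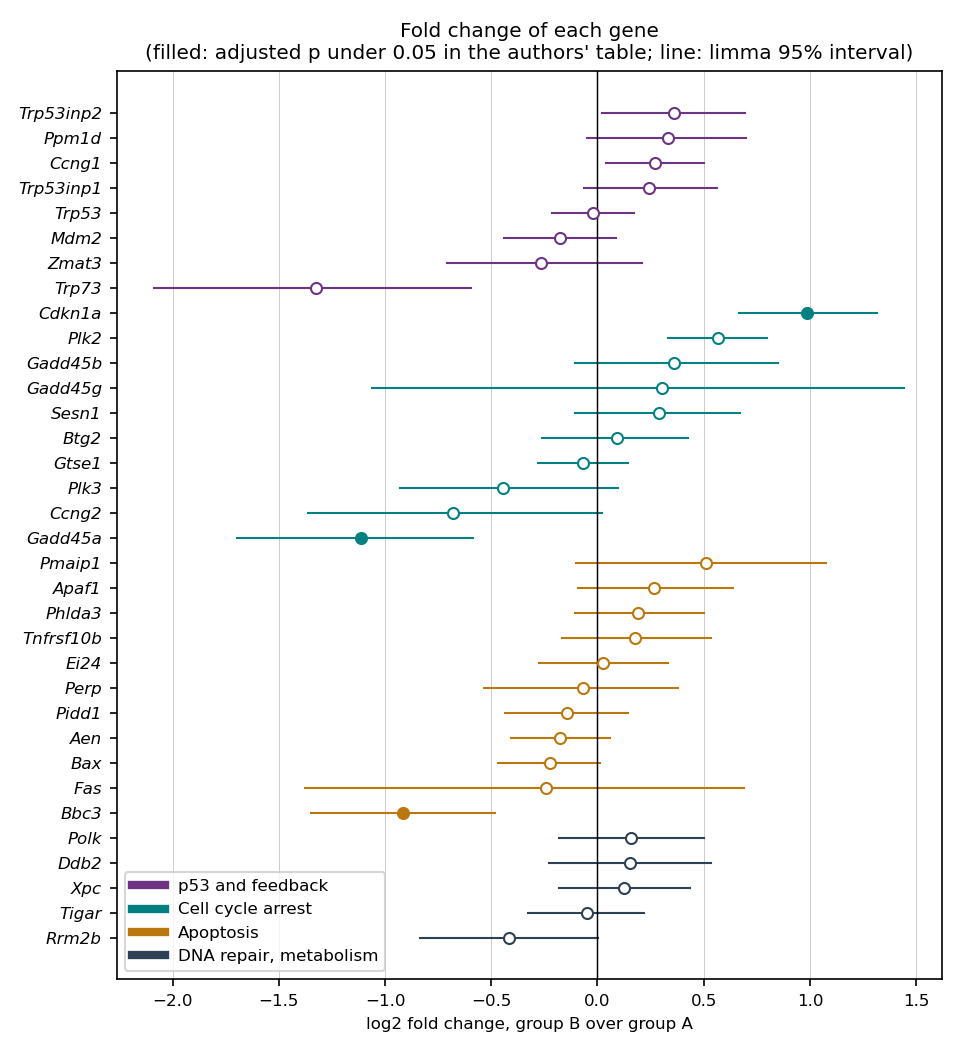
Log2 fold change of group B over group A for the 34 genes by role; circles are the authors' values, filled where their adjusted p was under 0.05, and lines are 95% intervals from limma on the recovered libraries. Cdkn1a stands at 0.99, Gadd45a at -1.11 and Bbc3 at -0.92, and of the others only the intervals of Trp73, Plk2, Ccng1 and Trp53inp2 leave out 0.

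**Figure D2:**
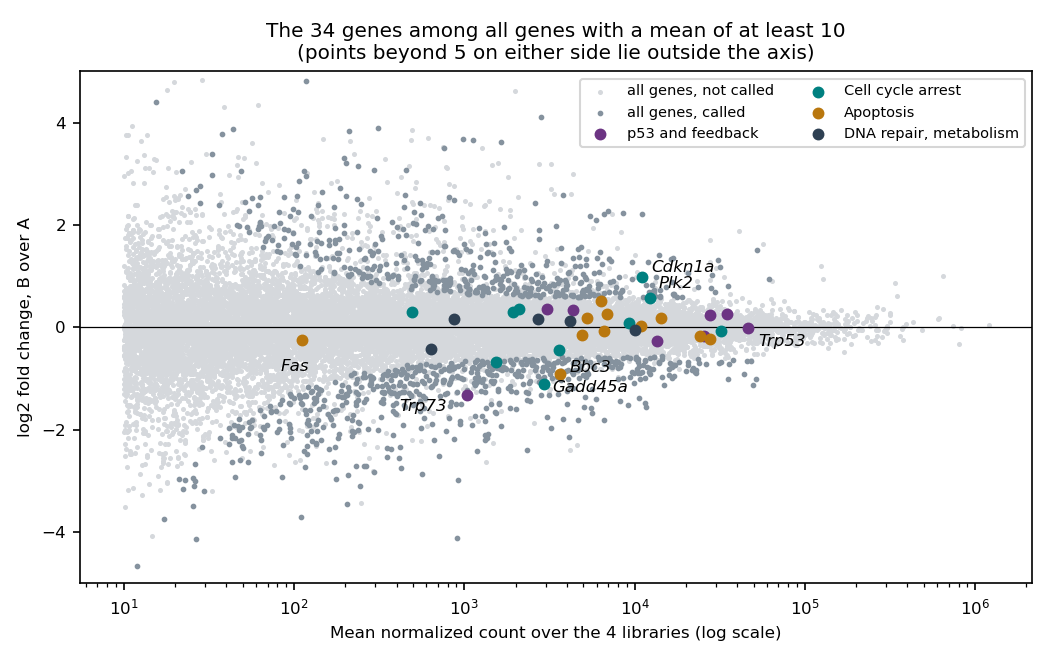
Log2 fold change of group B over group A against the mean normalized count (log axis) for genes averaging 10 or more, with the 34 genes coloured by role. The members lie among abundant genes, from a mean of 111 for Fas to 46058 for Trp53, and most sit within 0.5 of 0.

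The gene of p53 itself was abundant and its level was alike in all libraries. Trp53 (ENSMUSG00000059552, chromosome 11, 69580359 to 69591873, mm10) had 45393 normalized counts in A1 and 47381 in A2, against 47234 in B1 and 44222 in B2. The groups overlapped, with a log2 fold change of -0.02 and a limma 95% interval from -0.22 to 0.17. Per kilobase of exon Trp53 had 11386 normalized counts over the 4 libraries, which put its level behind only Bax (17641) and Gtse1 (11764) among the 34. These data are of RNA and hold nothing on the amount or activity of the p53 protein.

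The feedback genes had no member past the threshold among 8. Mdm2 (ENSMUSG00000020184, chromosome 10, 117688875 to 117710758), the ubiquitin ligase that removes p53, had 25318 and 29257 normalized counts in A1 and A2 and 22937 and 25287 in B1 and B2. Both B libraries were lower, B2 only just, at 0.999 times the level of A1, and the log2 fold change was -0.18 (limma 95% interval -0.44 to 0.09). Ppm1d, a phosphatase that reverses the activating marks on p53, had 4032 and 3665 in group A against 5421 and 4285 in group B. Ccng1, a cyclin that acts with a phosphatase on Mdm2, had 29976 and 33670.5 against 37061 and 39619.6. The groups did not overlap for either gene, with log2 fold changes of 0.33 for Ppm1d and 0.27 for Ccng1 in the authors' deposited table and adjusted p of 0.595 and 0.798 (DESeq). Log2 fold changes of Trp53inp1, a stress protein that promotes p53 phosphorylation, and Trp53inp2, its relative with a role in autophagy, were 0.24 and 0.36. That of Zmat3, an RNA-binding protein, was -0.27, and its A libraries differed more than the groups did, with 12170.1 in A1 and 17325 in A2.

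Trp73, which encodes the p53 family member p73, had the largest fold change in size of all 34 genes and missed the threshold. It had 1210.5 normalized counts in A1 and 1773 in A2, against 453 in B1 and 737 in B2. Both B libraries lay below both A libraries, and the single ratios of a B to an A library ran from 0.256 to 0.609. On the log2 scale the fold change of Trp73 was -1.33, the adjusted p being 0.0647 in the authors' deposited table (DESeq) and 0.0854 in limma. Without B2 it passed in limma, at -1.69 (adjusted p = 0.0235), and without B1 it did not, at -0.99 (adjusted p = 0.0881). Without A1 and without A2, where limma called 0 genes of any kind, its log2 fold change was -1.62 and -1.07 (adjusted p 0.242 and 0.472). Per kilobase of exon it was one of the lower members, at 270 in group A and 107 in group B.

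Among the 10 arrest genes 1 was higher and 1 lower. Cdkn1a (ENSMUSG00000023067, chromosome 17, 29090976 to 29100727) encodes the inhibitor p21, which blocks cyclin-dependent kinases. It had 8236 normalized counts in A1 and 6704 in A2, against 14140.4 in B1 and 15438 in B2. Both B libraries were well above both A libraries, and every ratio of a B to an A library was between 1.72 and 2.30. Its log2 fold change was 0.99, with an adjusted p of 1.73e-05 in the authors' deposited table (DESeq). In limma, where 2.01% of 20465 genes passed, Cdkn1a was the single member called (log2 fold change 0.99, SE 0.13, adjusted p = 0.0340). With no filter, a pseudocount of 0.5 or scaling by total count limma again called 1 member, beside 1.36%, 1.94% and 2.19% of all genes. With a minimum average of 50 or a pseudocount of 5 it called 2, Plk2 being the second, beside 2.65% and 2.42%. The sum of fibroblast markers was lowest in B1 and highest in B2. The feeder fibroblasts had been irradiated, and whether these transcripts came from them was not tested. The log2 fold change of Cdkn1a was 0.93 with B1 as the only B library and 1.05 with B2 as the only one. Without A1 and without A2 limma called 0 genes of any kind (0.00%), although 2420 and 2034 had an unadjusted p under 0.05, and the adjusted p of Cdkn1a was 0.169 and 0.312. Both B libraries also lay above both A libraries in 12 of 20 endoderm and 14 of 18 macrophage markers, and below them in 8 of 12 stem cell markers. The reverse held for 1, 3 and 0 of these markers. The part of the fibroblast, endoderm, macrophage and stem cell transcripts in the result was not tested. In bulk RNA fewer cells of a type cannot be told apart from less RNA per cell. An annotated transcript on the opposite strand, AC167363.2, covers 7.68% of the exon bases of Cdkn1a.

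Gadd45a (ENSMUSG00000036390, chromosome 6, 67035096 to 67037457) encodes a small stress protein that binds p21, the replication clamp and the mitotic kinase complex. It had 4315 normalized counts in A1 and 3697 in A2, against 1465 in B1 and 2240.4 in B2. The groups did not overlap, and B1 was the lowest library, so that ratios of B to A libraries ran from 0.340 to 0.606. For Gadd45a the log2 fold change was -1.11 and the adjusted p 0.000316 in the authors' deposited table (DESeq). In limma with all libraries the adjusted p was 0.0660, which ends the call. The log2 fold change of Gadd45a in limma was -0.83 without B1 and -1.45 without B2. An exon of a transcript on the opposite strand, E230016M11Rik, covers 19.1% of the exon bases of Gadd45a, and how reads were assigned to strands is not given in the sources used here. That transcript had a mean of 110 normalized counts, against 4006 and 1853 for Gadd45a in groups A and B.

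The paralogs of Gadd45a did not pass. Gadd45b had 2125 and 1561 normalized counts in A1 and A2 and 2174 and 2556 in B1 and B2, a log2 fold change of 0.36 (limma 95% interval -0.11 to 0.85). Gadd45g had 565, 324, 299.8 and 797, so its highest and lowest libraries were both in group B, and its interval ran from -1.06 to 1.45. Per kilobase of exon in group A, Gadd45a was at 2271, Gadd45b at 1160.0 and Gadd45g at 379. In group B these levels were 1050.3, 1488 and 467, so that Gadd45b rather than Gadd45a was the most abundant of the 3 there. Whether the 3 fold changes differ was not tested.

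The polo-like kinase Plk2, which acts on centrioles and is induced by p53, had 9744 and 10186 normalized counts in A1 and A2 and 14223 and 15279.9 in B1 and B2. Both B libraries were higher, by 1.40 to 1.57 times, and the adjusted p missed the threshold narrowly, at 0.0567 in the authors' deposited table (DESeq) and 0.0508 in limma. Its relative Plk3 had 5013 and 3329 in A1 and A2 and 3167 and 2964 in B1 and B2. Ccng2, an unusual cyclin that rises in resting cells, had 1482 and 2313 against 965 and 1399.8. In both genes the A libraries differed widely from each other, and log2 fold changes of -0.44 for Plk3 and -0.68 for Ccng2 did not pass (adjusted p 0.904 and 0.725, DESeq). The most abundant arrest gene was Gtse1, a microtubule-binding protein of the later cycle phases that carries p53 out of the nucleus, with 31851, 34189.6, 30390.3 and 32594 and a log2 fold change of -0.07. Log2 fold changes were 0.09 for Btg2, an antiproliferative cofactor of mRNA decay, and 0.29 for Sesn1, a sensor that restrains growth signalling.

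**Figure D3:**
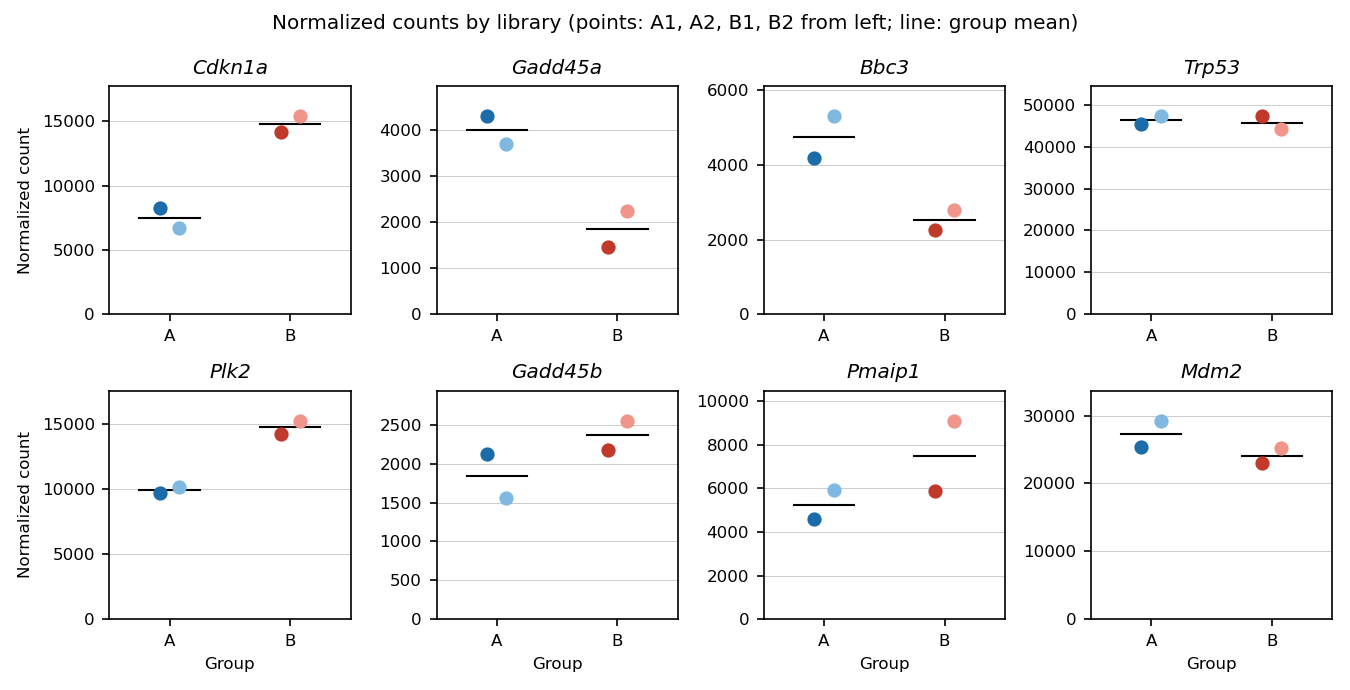
Normalized counts (linear axes from 0) of 8 of the genes in libraries A1, A2, B1 and B2, with the group means as lines. Cdkn1a and Plk2 are higher in both B libraries, Gadd45a and Bbc3 lower in both, and Trp53 overlaps between the groups.

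Among 11 apoptosis genes 1 was lower and 0 were higher. Bbc3 (ENSMUSG00000002083, chromosome 7, 16308393 to 16318205) encodes PUMA, a protein that frees the killers Bax and Bak from their inhibitors. It had 4183 normalized counts in A1 and 5313 in A2, against 2244 in B1 and 2783 in B2. The groups did not overlap, and ratios of B to A libraries ran from 0.423 to 0.665. For Bbc3 the log2 fold change was -0.92, with an adjusted p of 0.0102 in the authors' deposited table (DESeq). In limma with all libraries the adjusted p was 0.0638, which ends this call too. Without B2, the library with the most fibroblast transcripts, the log2 fold change in limma was -1.07 (adjusted p = 0.0277, where 5.43% of all genes passed), and without B1 it was -0.76 (adjusted p = 0.0693, where 4.87% passed). As for Cdkn1a and Gadd45a, the part of the fibroblast, endoderm, macrophage and stem cell transcripts was not tested.

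Pmaip1, which encodes NOXA, a protein of the same kind, had 4575 and 5942 normalized counts in A1 and A2 and 5877 and 9114 in B1 and B2. The groups overlapped and B2 alone stood high, so the log2 fold change of 0.51 had an adjusted p of 0.977 (authors' deposited table, DESeq). Bax, which opens the outer mitochondrial membrane, had 29299 and 30603 in group A against 23958 and 27349 in group B. It was the most abundant of the 34 genes per kilobase of exon, and its log2 fold change of -0.22 did not pass (limma 95% interval -0.47 to 0.01). Another annotated gene on its strand, Gm45808, shares 12.2% of its exon bases. The log2 fold change of Apaf1, the scaffold that activates caspase 9 after Bax acts, was 0.27.

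The death receptors differed in level. Fas had 124 and 117 normalized counts in A1 and A2 and 64.2 and 139.5 in B1 and B2, the lowest mean of all 34 genes. Tnfrsf10b, the receptor for TRAIL, averaged 4915 in group A against 5554 in group B. Per kilobase of exon the levels over all libraries were 53.9 for Fas and 960 for Tnfrsf10b. Log2 fold changes were -0.24 for Fas and 0.18 for Tnfrsf10b, and neither passed. The other apoptosis genes were Phlda3, an inhibitor of AKT (0.19), the exonuclease Aen (-0.18), Pidd1, which activates caspase 2 (-0.14), the desmosome protein Perp (-0.07) and Ei24, a protein of the endoplasmic reticulum (0.02). None of these log2 fold changes passed in the authors' deposited table or in limma with all libraries.

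The 5 repair and metabolism genes had no member past the threshold. Rrm2b, the p53-induced subunit that supplies nucleotides for repair, had 708 and 745 normalized counts in A1 and A2 and 529.9 and 558 in B1 and B2. The libraries of each group lay close together and the groups did not overlap, but the log2 fold change of -0.42 did not pass (adjusted p 0.543, authors' deposited table, DESeq). Ddb2, which finds ultraviolet damage, had 814 and 828 against 915 and 912, with a log2 fold change of 0.15. Its exons share 23.8% of their bases with Acp2 on the opposite strand, which had a mean of 2148, so its counts are uncertain. The most abundant of this group was Tigar, which lowers glycolysis, with 10143, 10222, 10576 and 9117. The log2 fold changes of the damage sensor Xpc and the bypass polymerase Polk were 0.12 and 0.16.

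**Figure D4:**
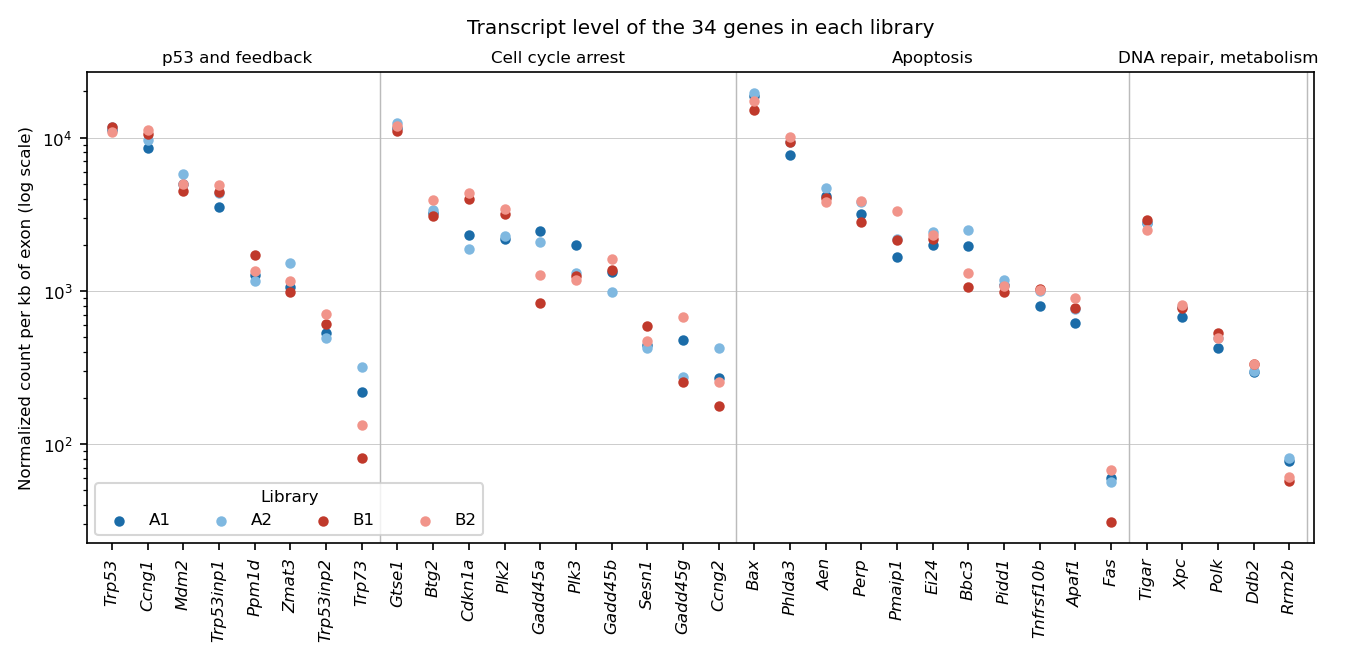
Normalized count per kilobase of exon (log axis) of each of the 34 genes in the 4 libraries, ordered by level within each role. Bax, Gtse1 and Trp53 stand highest, and Fas and Rrm2b lowest.

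The 2 libraries of each group also differed in these genes, and the roles did not all go one way. In group A, 25 of the 34 genes (73.5%) were higher in A2 than in A1, against 52.5% of all genes averaging 100 or more. In group B, 25 of the 34 were higher in B2 than in B1, against 45.4% of all such genes. Of the apoptosis genes 10 of 11 were higher in A2 and 9 of 11 in B2, and of the feedback genes 6 of 8 in each. Of the arrest genes 4 of 10 were higher in A2 and 8 of 10 in B2, while of the repair and metabolism genes it was 5 of 5 and 2 of 5. The median log2 ratio of the 34 was 0.11 for A2 over A1 and 0.13 for B2 over B1. For the 3 called genes these log2 ratios were -0.30 and 0.13 (Cdkn1a), -0.22 and 0.61 (Gadd45a), and 0.34 and 0.31 (Bbc3). Fibroblast markers went the other way in group A, with 0 of 25 higher in A2, and the same way in group B, with 23 of 25 higher in B2. Endoderm markers went the other way in both groups, with 3 of 20 higher in A2 and 1 of 20 in B2. Stem cell markers were higher in A2 in 9 of 12 and higher in B2 in 4 of 12, and macrophage markers in 8 and 14 of 18. The part of these marker differences in the values of the members was not tested, and genes of 1 library are not independent of each other.

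**Figure D5:**
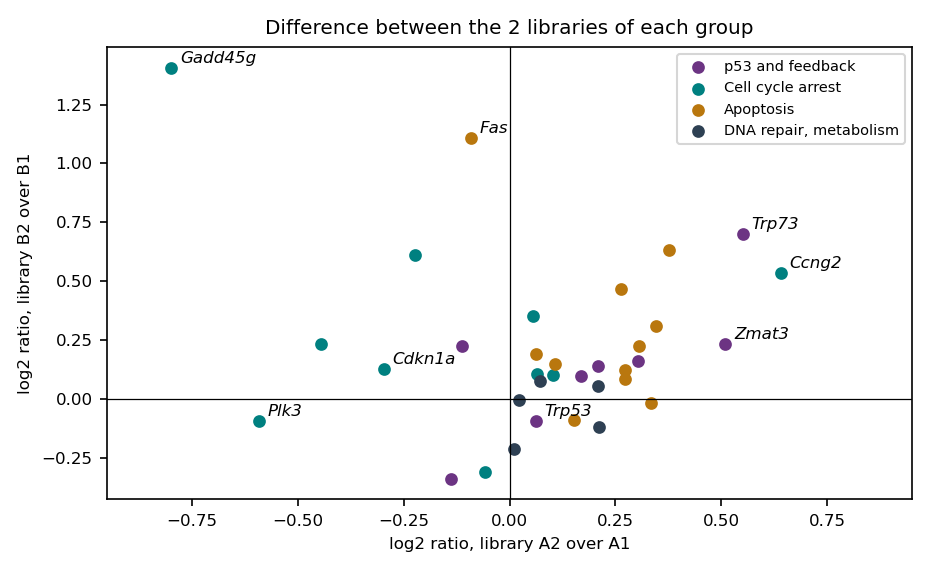
Log2 ratio of A2 over A1 (horizontal) and of B2 over B1 (vertical) for the 34 genes, coloured by role. Most apoptosis genes lie to the upper right, while Gadd45g, Plk3 and Cdkn1a lie to the left because they were lower in A2.

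Other genes of the pathway were given by fixed lists. Of 30 regulators of p53, such as its kinases, acetylases and ligases, 0 passed in the authors' deposited table (DESeq). Of all genes tested 3.46% passed, and of those averaging 10 or more, as all 30 did, 5.12%. At an unadjusted p under 0.05 (DESeq) there were 2 of the 30, beside 3141 of the 20465 genes averaging 10 or more. limma with all libraries called 0 of the 30, beside 2.01% of all genes. The list's median log2 fold change was 0.023. Its most abundant members had log2 fold changes of -0.26 (Trim28, a corepressor that works with Mdm2) and 0.01 (Rpl26, a ribosomal protein that binds Trp53 mRNA). Of 30 further p53 targets, 27 averaged 10 or more, and 1 was lower and 0 higher. In either direction 3.46% of all genes tested passed, and 5.12% of those averaging 10 or more. The lower target was Kank3, an adaptor of the actin skeleton, with 3130.3 and 3069 normalized counts in A1 and A2 and 1786 and 1958 in B1 and B2 (authors' deposited table: log2 fold change -0.73, DESeq adjusted p 0.00676). In limma its adjusted p was 0.0551. Within groups, 23 of these 30 targets (76.7%) were higher in A2 than in A1, against 50.6% of all genes averaging 10 or more. In B2 over B1 it was 22 (73.3%), against 47.4%. Of the 30 regulators 21 were higher in A2 and 12 in B2, and of the 19 Bcl2 and caspase genes below 11 and 9.

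Of 19 members of the Bcl2 and caspase families, which carry out apoptosis, 1 was higher and 1 lower, beside 1.54% and 1.92% of all genes tested. Xiap was at 0 in all libraries and was not tested, and the other 18 averaged 10 or more. Of the 20465 genes averaging 10 or more, 466 were called higher and 581 lower. Casp8, the caspase that death receptors activate, had 309 and 246 normalized counts in A1 and A2 and 509.7 and 559 in B1 and B2 (authors' deposited table: log2 fold change 0.95, DESeq adjusted p 0.00983). Bcl2l11, which encodes BIM, a killer protein of the kind of PUMA, had 2279.99 and 2625 against 1581 and 1614 (log2 fold change -0.62, adjusted p 0.0471, same table, DESeq). The groups did not overlap for either gene, and neither passed in limma with all libraries (adjusted p 0.0857 and 0.0877). Of the 6 other inhibitors of cyclin-dependent kinases 1 was lower and 0 were higher, beside the same shares. It was Cdkn1c, which encodes p57, a relative of p21, with 887 and 1088 normalized counts in group A and 125 and 145 in group B. Its log2 fold change was -2.87 (adjusted p 1.35e-20, authors' deposited table, DESeq), opposite in sign to that of Cdkn1a, and it passed in limma (adjusted p = 0.0255). Cdkn1b, which encodes p27, the third of that family, had means of 1757 and 1669 and a log2 fold change of -0.07.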

How the data were processed

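RNA sequencing of 4 samples was analysed from 1 table of the whole series. Per the submitters' processing notes, STAR, DESeq and build mm10 were used. The sources used here state no version, read counter, strand setting or filter. The authors' deposited group means are a signal of counts divided by size factors, and the table ties neither group to a genotype. All values of single libraries rest on these means. The deposited fold change is the ratio of group B to group A, deposited beside its log2, and the deposited p-value and adjusted p-value come from the authors' test, which was the main test at a threshold of 0.05. A repeat of 5 rows was dropped, leaving 46603 genes, of which 30237 were tested.

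Each group mean is a sum of 2 whole read numbers, each scaled by the fixed step of its library, and solving for them gave whole numbers within 1e-06 for each of 28616 genes with a value in group A and 28353 with one in group B. A second pair of whole numbers also lay within that distance for 1700 genes in group A and 11 in group B, among them 7 and 0 of the 34 members. The nearest pair was taken, the next lying at least 20.5 times (members: 12951 times) as far off in group A and 201 times in group B. limma 3.58.1 (R 4.3.3, mean-variance trend, two-sided, Benjamini-Hochberg adjustment) was run on 20465 genes averaging 10 normalized counts or more, as log2(normalized count + 1), and intervals at 95% come from it. This scale understates changes of low genes. Both procedures were tested on simulated data. Depth makes counting error small here, and the 2 libraries a group limit the precision.

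Gene positions and exon lengths come from GENCODE M21 (mm10), and 1 listed gene was matched by ID because the table uses its older symbol. Members and lists were chosen with earlier results of these data known. All 34 members are named. Values of every library were set to be given for members past the threshold in either test, Trp53, Mdm2 and the most abundant of each role, and those of other members were chosen after their values were seen. From each other list of pathway genes the members past the threshold, or the 2 most abundant where none passed, are named. Cdkn1b and Xiap were named beyond this rule. Of the cell type markers those past the threshold in the authors' test are named, and Bgn, Afp and Laptm5 besides.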

Additional observations from a re-analysis of the deposited data

How the results depend on the processing

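The 3 members called by the authors' test became 5 when the adjustment was made over genes with a mean of at least 10. In limma, 1 member was called on all libraries, with no filter, with a pseudocount of 0.5 and with scaling by total count, and 2 with a mean of at least 50 or a pseudocount of 5. Counts of members called with 1 library left out are not compared with these, because the share of all genes called moved as well. Without A1 and without A2, limma called 0 of 20465 genes of any kind, so those counts say nothing about the members. With a library left out, the lone one of its group is assumed to vary like those of the other group. The 4 calls in the other lists became 1 in limma on all libraries, where 2.01% of all genes passed. Cdkn1a, Gadd45a, Bbc3, Plk2 and Trp73 kept their direction in all settings. Their groups did not overlap, so leaving out 1 library could not turn it, and this adds no support. In limma with all libraries the adjusted p ran up to 0.0362 for Cdkn1a, when scaled by total count. With no filter it ran up to 0.0670 for Gadd45a and 0.0655 for Bbc3. The median log2 fold change of the members ran from -0.016 without A1 to 0.14 without B1. Signs of 8 members that did not pass turned in limma. Without A2 the log2 fold change was 0.0098 for Trp53, 0.0047 for Zmat3, -0.21 for Gadd45g and 0.053 for Perp. Without B2 it was 0.026 for Trp53, -0.093 for Btg2, -0.51 for Gadd45g, -0.012 for Ei24 and 0.055 for Tigar. Without B1 it was 0.21 for Fas and 0.15 for Perp, and without A1 it was -0.11 for Ei24. The cause was not tested. No paired analysis was possible because the recovered libraries carry no replicate numbers.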
